A study of Homo sapiens with 4 samples.

Results

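ARIH1 and ARIH2 and the core subunits of the cullin-RING ubiquitin ligases were examined in RNA-seq of H1299 cells. The 10 genes were ARIH1 and ARIH2, the scaffolds CUL1, CUL2, CUL3, CUL4A, CUL4B and CUL5, and the RING proteins RBX1 and RNF7. They were chosen by the measured values of this same comparison: the transcript ARIH2-201 (ENST00000356401) had stood out as lower in the treated cells, and the other genes were added as its relative and its partners. All differences below are therefore descriptions, with no test. The 10 genes have 118 of the 227368 listed transcripts, of which 33 had a count in any column and 14 passed the filter of a mean FPKM (fragments scaled to transcript length and depth) above 1 in at least one group. H1299 is a human cell line from a non-small cell carcinoma of the lung. One group was treated with 5 μM HgCl2 for 48 h, and the control group received the solvent, 0.6% EtOH, for the same time. The treatment text among the labels gives HgCl2 for all samples, and the study's account of the controls was followed. Each group has 2 columns, numbered as replicates 1 and 2.

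Cullin-RING ligases attach ubiquitin to proteins and so mark many of them for the proteasome. A cullin is the scaffold: it holds a RING protein at one end, which recruits a ubiquitin-loaded E2 enzyme, and an adaptor with a substrate receptor at the other. RBX1 serves CUL1 to CUL4B, while RNF7 pairs with CUL5, and the ligase is switched on when the small protein NEDD8 is joined to the cullin. ARIH1 and ARIH2 are RBR (RING-between-RING) ligases that dock on such neddylated cullins and pass the first ubiquitin to the substrate through a cysteine of their own. ARIH1 works with the RBX1-bound cullins and ARIH2 with CUL5 and RNF7.

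The total counts lay between 4720978 and 5053120 per column. The columns of a group were nearly alike. Over transcripts with at least 20 counts in a pair of columns, the variance of the difference was 0.505 times the counting noise in EtOH and 0.516 times in HgCl2, against 31.9 between EtOH replicate 1 and HgCl2 replicate 1. For the transcripts of the 10 genes these ratios were 0.625 over 12 transcripts, 0.467 over 10 and 22.5 over 12. Within each group the difference was smaller than sampling noise, so its columns were counted as 1 sample and each comparison sets 1 sample against 1. Intervals of 95% are exact (Clopper-Pearson) and computed from mean counts. They hold the error of counting alone. In RNA of whole cultures, less RNA per cell and fewer cells with the RNA cannot be told apart. As a check of the cell line, the mesenchymal marker VIM had between 501 and 628 counts per column, and KRT18 between 18 and 31. The lung lineage genes NKX2-1 and SFTPC had at most 2 and 0 counts. GAPDH, a glycolytic enzyme that every cell uses, had at most 1 count in any column, so a count at or near 0 in this table does not show that a gene was not expressed.

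Reads were counted per transcript, and most counts were on transcripts that have bases of their own, covered by no other listed transcript. The sources used here do not say whether reads over shared bases were left out, and the positions below hold if they were. Of the 118 transcripts, 49 have no base that is free of every other listed transcript, and 1 of these had a count. The 31 that have a run of 150 or more such bases held 97.8% of the counts of the 10 genes. For 4 of the main coding transcripts these bases lie wholly after the stop codon: all 1652 single-transcript bases of ARIH2-201, all 1860 of CUL5-201, all 647 of RBX1-201 and all 1440 of RNF7-201 are in the 3′ UTR. So are 14176 of the 14217 of ARIH1-201 and 754 of the 812 of CUL4B-202. A count may therefore stand for the reads over these bases only and not for the level of the whole gene. Transcript lengths in the annotation used here equal those behind the deposited FPKM for 28 of the 33 transcripts with a count. They differ for ARIH2-201 (4912 against 4933 bases), CUL4B-202 (5915 against 4902) and CUL4B-207 (1059 against 1011), and for CUL4B-203 and CUL4B-204, which had at most 3 counts on average. The CUL4B-202 behind the deposited FPKM was thus the shorter one. Whether it held the 754 bases above was not tested, so its counts may not come from them.

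Promoters are shown for ARIH2 and RBX1, the genes of which 3 transcripts were tested and all 3 were at least 2-fold lower in HgCl2. The 3 of RBX1 passed the FPKM filter through EtOH alone. The promoters come from RefSeq on GRCh38.p14, plus strand, from 250 bases before to 50 after the annotated start. They lie at chr3:48918592-48918891 for ARIH2 and chr22:40951128-40951427 for RBX1. Capitals mark matches to the searched letters, on either strand and with no overlap between matches.
ARIH2 promoter: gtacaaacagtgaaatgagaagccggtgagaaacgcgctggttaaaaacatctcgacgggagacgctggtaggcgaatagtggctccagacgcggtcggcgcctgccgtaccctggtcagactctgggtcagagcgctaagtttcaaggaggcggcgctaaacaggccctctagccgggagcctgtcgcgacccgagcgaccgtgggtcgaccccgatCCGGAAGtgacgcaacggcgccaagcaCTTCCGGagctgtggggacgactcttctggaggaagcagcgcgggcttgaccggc
RBX1 promoter: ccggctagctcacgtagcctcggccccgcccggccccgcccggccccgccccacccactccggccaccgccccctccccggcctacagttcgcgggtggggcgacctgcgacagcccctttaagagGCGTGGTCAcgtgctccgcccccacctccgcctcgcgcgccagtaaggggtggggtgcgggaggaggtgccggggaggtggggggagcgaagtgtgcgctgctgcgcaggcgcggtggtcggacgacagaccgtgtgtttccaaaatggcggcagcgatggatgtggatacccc
The ETS core CCGGAAG was found at 2 places in the ARIH2 promoter, on opposite strands, with the leftmost bases at -32 and -5 from the start. It is in 10.3% of the 35116 promoters of the table, and also in promoters of CUL4A and CUL4B. The core of the antioxidant response element, TGACNNNGC, which is bound by NRF2, was found at 1 place in the RBX1 promoter, at -124. It is in 13.3% of all promoters, and also in promoters of CUL5 and CUL4B. The metal response element cores TGCACNC and TGCGCNC, bound by MTF1, are in 12.1% and 20% of all promoters. Among these genes, promoters of CUL1 and CUL4A held the first, and promoters of ARIH1, CUL1, CUL4A and CUL5 the second. All 10 genes had a promoter in the table, 23 promoters in all. The matches are letters in a window and were not tested as binding sites.

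ARIH2 (ENSG00000177479) lies on the plus strand of chromosome 3, and its transcript ARIH2-201 runs from 48918842 to 48986382 of GRCh38. In EtOH the counts of ARIH2-201 were 375 and 377, and in HgCl2 they were 85 and 86. Both HgCl2 values lay below both EtOH values, a 3.98-fold lower level (log2 fold change -1.99, 95% confidence interval -2.35 to -1.65). On the deposited FPKM scale the group means were 13.9 and 3.94. Among the 2712 tested transcripts that averaged 200 counts or more, its log2 fold change was number 3 from the lowest, which describes how the gene was picked.

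The other tested transcripts of ARIH2 have their own bases in separate parts of the gene. ARIH2-213 (ENST00000466850) is a retained intron, from 48922761 to 48927956, with 143 bases of its own just after the exon that holds the start codon of ARIH2-201. It had 68 and 75 counts in EtOH and 28 and 28 in HgCl2, with a log2 fold change of -1.21 (-1.89 to -0.56). ARIH2-207 (ENST00000452385), whose annotated type is nonsense-mediated decay, has 744 bases of its own at an internal start. It had 43 and 40 counts in EtOH and 21 and 16 in HgCl2, with a log2 fold change of -1.02 (-1.90 to -0.20), and it was under 2-fold without EtOH replicate 1 (-0.96) or without HgCl2 replicate 2 (-0.83). In both transcripts the HgCl2 counts lay below the EtOH counts without overlap, which says little by itself. Over all 17547 tested transcripts the counts of the groups did not overlap and were lower in HgCl2 for 52.9% and higher for 34.7%, and over those that averaged 30 counts or more for 41.5% and 48.6%. Among the 14 tested transcripts of the 10 genes, 8 were lower and 4 higher without overlap.

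The differences were not of equal size. ARIH2-213 and ARIH2-207 together went from a mean of 113 to 46.5 counts, a log2 fold change of -1.14 (-1.66 to -0.63), against -1.99 for ARIH2-201. The share of ARIH2 counts on ARIH2-201 was 76.6% in EtOH (exact 95% binomial interval 72.6% to 80.3%) and 64.3% in HgCl2 (55.5% to 72.4%). ARIH2-213 held 14.6% (11.6% to 18%) and 21.1% (14.5% to 29.0%), and ARIH2-207 held 8.45% (6.15% to 11.3%) and 13.9% (8.52% to 21.0%). These are shares of counts and do not rank the transcripts by level, since ARIH2-201 has 1652 bases of its own and ARIH2-213 has 143. Per kb of own bases ARIH2-213 stood above ARIH2-201, with 500 against 228 counts in EtOH and 196 against 51.8 in HgCl2. By mean FPKM it also did, with 23.8 against 13.9 and 11.7 against 3.94. Summed over all ARIH2 transcripts there were 489 and 493 counts in EtOH and 135 and 131 in HgCl2, which is 3.34-fold lower (log2 fold change -1.74, -2.03 to -1.46). Of the other 28 ARIH2 transcripts, ARIH2-214, ARIH2-216 and ARIH2-225 had at most 2 counts in any column and 25 had none.

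Neighbouring and related genes had no counts. The antisense lncRNAs ENSG00000223343, ENSG00000235236 and ENSG00000273211, which overlap the last exon of ARIH2-201, had 0 counts in every column, as had ARIH2OS at the start of the gene and the pseudogene ARIH2P1. Reads over bases shared with them may have been left uncounted, which was not tested.

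**Figure D1:**
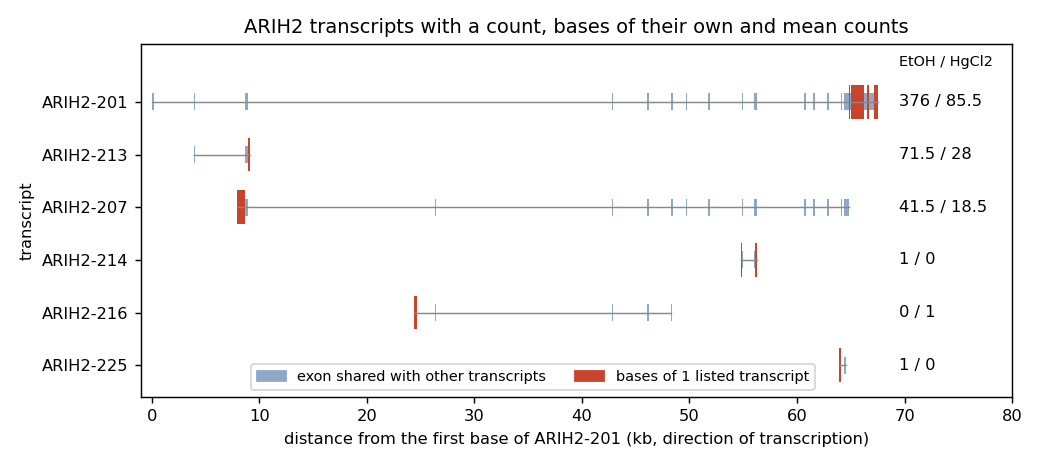
The 6 ARIH2 transcripts with a count, drawn to scale by distance in kb from the first base of ARIH2-201, with exons in blue and bases covered by no other listed transcript in red (drawn at least 0.12 kb wide). Numbers on the right are mean counts in EtOH and HgCl2, and ARIH2-201, with 376 against 85.5, has its red bases at the distal end.

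The intronic bases that single out ARIH2-213 are shown with those of the other retained introns that differed at least 2-fold and were higher, RNF7-207 and CUL3-212. They are read from GRCh38 in the direction of transcription, at chr3:48927814-48927956, chr3:141742908-141743027 and, on the minus strand, chr2:224478346-224478465. Capitals mark the splice donor GT that opens the intron in ARIH2-213 and RNF7-207. In CUL3-212 the last 120 of 1779 bases are given, and capitals mark the splice acceptor AG that closes the intron.
ARIH2-213: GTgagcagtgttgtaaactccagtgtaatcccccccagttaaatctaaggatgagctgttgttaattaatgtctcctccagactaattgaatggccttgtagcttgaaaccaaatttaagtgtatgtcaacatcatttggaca
RNF7-207: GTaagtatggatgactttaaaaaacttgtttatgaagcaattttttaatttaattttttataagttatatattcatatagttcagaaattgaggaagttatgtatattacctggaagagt
CUL3-212: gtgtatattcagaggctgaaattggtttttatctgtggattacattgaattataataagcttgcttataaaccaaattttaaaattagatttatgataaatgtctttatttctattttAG

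For ARIH1, the RBR ligase of the RBX1-bound cullins, the groups overlapped. Its coding transcript ARIH1-201 (ENST00000379887, chromosome 15 from 72474330 to 72602987) had 81 and 74 counts in EtOH and 72 and 85 in HgCl2. With 21679 bases it is long for its counts, so its mean FPKM of 0.651 and 0.824 stayed under the filter, and it was singled out after its values were seen. Without the filter its log2 fold change was 0.30 (-0.17 to 0.77), and with a minimum of 10 counts per column it was -0.01, so its sign depended on the scaling. The retained intron ARIH1-208 had 5 and 7 counts in EtOH and 6 and 4 in HgCl2 (-0.12, -2.17 to 1.86). The sum over ARIH1 was 86 and 81 counts in EtOH and 78 and 90 in HgCl2, a log2 fold change of 0.15 (-0.30 to 0.61) that came to -0.02 with a minimum of 10 counts per column. The corresponding interval of ARIH2 ended at -1.46.

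Among the scaffolds, CUL5 is the partner of ARIH2. CUL5-201 (ENST00000393094, chromosome 11 from 108008898 to 108107761) had 687 and 711 counts in EtOH and 814 and 786 in HgCl2. The HgCl2 columns were the higher ones, with a log2 fold change of 0.34 (0.19 to 0.49) that lay between 0.16 and 0.51 under the other settings. The median of all tested transcripts that averaged 30 counts or more, 0.21, lay within this interval. CUL4B, a scaffold of DDB1-based ligases, had the most counts of the 10 genes, and CUL4B-202 (ENST00000371322, chromosome X from 120523858 to 120560962) alone held 61.3% of them. It had 2087 and 2125 counts in EtOH and 2148 and 2098 in HgCl2, and the groups overlapped. Its log2 fold change of 0.16 (0.07 to 0.24) comes from the scaling, and it was -0.02 with a minimum of 10 counts per column. The retained intron CUL4B-207 had 34 and 34 counts in EtOH and 20 and 13 in HgCl2 (-0.89, -1.84 to -0.01), and it passed 2-fold without HgCl2 replicate 1 (-1.23).

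The other scaffolds had few counts. CUL3 carries BTB receptors such as KEAP1, and its coding transcripts had at most 2 counts in any column. Its retained intron CUL3-212 (ENST00000497715) had 11 and 7 counts in EtOH and 38 and 33 in HgCl2, the one cullin transcript that was at least 2-fold higher (2.11, 1.04 to 3.36). CUL4A-206, a transcript of CUL4A with no defined coding sequence, had 10 and 12 counts in EtOH and 2 and 1 in HgCl2 (-2.64, -6.68 to -0.31). CUL1, the scaffold of F-box ligases, had 6 and 2 counts in EtOH and 1 and 1 in HgCl2 over its 17 transcripts, and none was tested. CUL2, the scaffold of the VHL ligase, had 0 counts on all 10 transcripts in every column, which, as for GAPDH, shows no absence. For CUL1 and CUL2 a difference was not detectable at these counts, and 11 of the 17 transcripts of CUL1 and 3 of the 10 of CUL2 have no base of their own.

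Of the RING proteins, RBX1 had fewer counts in HgCl2, while the coding transcript of RNF7 showed no clear difference. RBX1-201, the coding transcript (ENST00000216225, chromosome 22 from 40951378 to 40973309), had 21 and 33 counts in EtOH and 2 and 0 in HgCl2 (-4.46, -9.97 to -2.01). Without HgCl2 replicate 1 it was at -7.72 and without HgCl2 replicate 2 at -3.54. The retained intron RBX1-202 had 20 and 16 counts in EtOH and 3 and 7 in HgCl2 (-1.68, -3.49 to -0.22), and it was at -1.20 without HgCl2 replicate 1 and -2.40 without HgCl2 replicate 2. The retained intron RBX1-203 had 16 and 8 counts in EtOH and 0 in both HgCl2 columns. With a limit of 3 counts in place of the HgCl2 mean it was 3.62-fold lower. That value leaves out the counting error in EtOH, and the exact interval of the log2 fold change ended at -1.33. The summed counts of RBX1 went from 57 and 57 counts to 5 and 7, which is 8.60-fold lower (log2 fold change -3.10, -4.61 to -1.89). The processed pseudogene RBX1P2 on chromosome 5 had 14 and 12 counts in EtOH and 2 and 0 in HgCl2. Reads of RBX1 and of this copy may be shared, which was not tested, so the values of RBX1 are uncertain.

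RNF7-201, the coding transcript of RNF7 (ENST00000273480, chromosome 3 from 141738298 to 141747560), had 70 and 68 counts in EtOH and 75 and 77 in HgCl2. The columns did not overlap, but the log2 fold change of 0.28 had an interval from -0.21 to 0.77. The median of all tested transcripts that averaged 30 counts or more was 0.21. The retained intron RNF7-207 (ENST00000498828) had 7 and 6 counts in EtOH and 22 and 22 in HgCl2 (1.88, 0.59 to 3.43). The summed counts of RNF7 were 77 and 74 in EtOH and 97 and 99 in HgCl2, a log2 fold change of 0.52 (0.07 to 0.97).

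**Figure D2:**
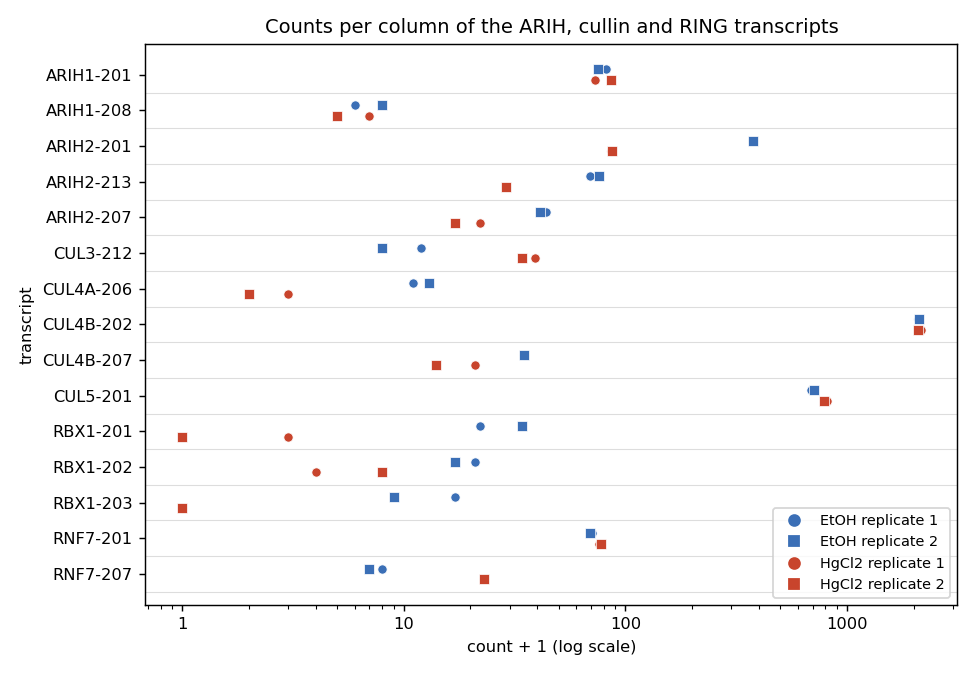
Counts plus 1 on a log axis for the 14 tested transcripts of the 10 genes and ARIH1-201, with EtOH in blue, HgCl2 in red, replicate 1 as circles and replicate 2 as squares. The 3 ARIH2 and the 3 RBX1 transcripts lie lower in HgCl2, whereas the groups of CUL4B-202 and ARIH1-201 overlap.

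On the deposited FPKM, a scale per transcript length, the coding transcripts in EtOH stood in the order CUL4B-202 (78.2), CUL5-201 (20.6), ARIH2-201 (13.9), RNF7-201 (4.71), RBX1-201 (4.20) and ARIH1-201 (0.651). RNF7-201, with 4.77 and 4.64, and RBX1-201, with 3.27 and 5.14, did not differ beyond their columns. In HgCl2 the order was CUL4B-202 (98.5), CUL5-201 (29.5), RNF7-201 (6.48), ARIH2-201 (3.94), ARIH1-201 (0.824) and RBX1-201 (0.195). ARIH2-201 thus stood above RNF7-201 in EtOH and below it in HgCl2 on this scale of full lengths. Per kb of own bases the mean counts of ARIH2-201 and RNF7-201 were 228 and 47.9 in EtOH and 51.8 and 52.8 in HgCl2, so the order in HgCl2 depends on the length used. The FPKM per count was 1.25 times higher in HgCl2 than in EtOH for every transcript, so FPKM ratios lie above the ratios of counts.

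Of the 14 tested transcripts, 7 were at least 2-fold lower and 2 at least 2-fold higher in HgCl2. The lower ones were the 3 of ARIH2, the 3 of RBX1 and CUL4A-206, and the higher ones CUL3-212 and RNF7-207. RBX1-201, RBX1-202, RBX1-203, CUL4A-206 and CUL3-212 passed the FPKM filter only through the group in which they were higher. The filter favours large differences among such transcripts, here and among all tested ones. Over all 17547 tested transcripts, 34.1% were at least 2-fold lower and 19.2% at least 2-fold higher. The median log2 fold change was -0.96 for the 14 transcripts and -0.21 for all. Nothing is read from this contrast, which had chosen ARIH2. Many of these transcripts rest on few counts, and with a mean of at least 30 counts 6 of the 14 remained. Of these 6, the 3 of ARIH2 were at least 2-fold lower and 0 were at least 2-fold higher, whereas of 7107 such transcripts 9.53% were lower and 15.5% higher. ARIH2-207 stands at that limit, with a mean of 30 counts, and CUL4B-207 just under it, with 25.2. At the FPKM filter, the member kept with the lowest value was RBX1-202 (1.75 in EtOH), and the highest left out was CUL5-202 (0.848 in EtOH).

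**Figure D3:**
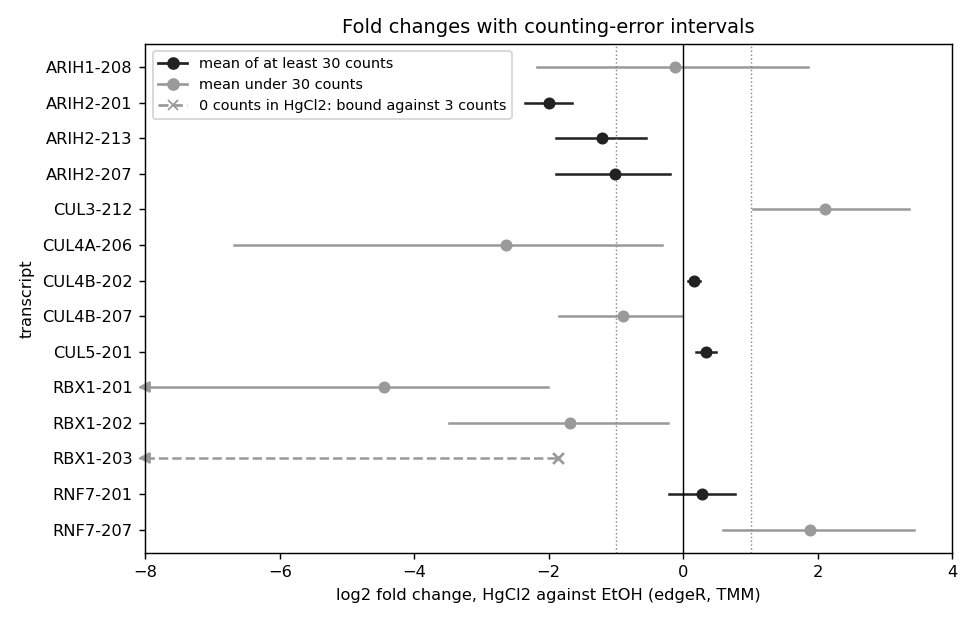
Log2 fold changes of HgCl2 against EtOH from edgeR for the 14 tested transcripts, all but RBX1-203 with exact 95% intervals of the mean counts. The intervals cover counting error only. For RBX1-203, with 0 counts in HgCl2, a dashed line with a cross marks the bound against 3 counts instead. Arrows mark lines that run past the axis, and dotted lines mark 2-fold. The interval of ARIH2-201, from -2.35 to -1.65, lies wholly beyond 2-fold lower, and that of CUL3-212, from 1.04 to 3.36, wholly beyond 2-fold higher.

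The other genes of the pathway were followed on 10 lists of 149 genes, which hold 183 tested transcripts of 99 genes. Of these transcripts, 32 (17.5%) were at least 2-fold higher and 39 (21.3%) at least 2-fold lower, and their median log2 fold change was 0.13. With a mean of at least 30 counts, 10 of 90 were higher and 0 of 90 lower, and the median was 0.30, against 0.21 for all such transcripts. Over all 17547 tested transcripts 19.2% were at least 2-fold higher and 34.1% lower, and over the 7107 with that mean 15.5% and 9.53%. The counts of single lists below are small, and no direction of a list is read from them. Among the 90 list transcripts with that mean, the nearest to ARIH2-201 by log2 fold change was the coding transcript KCTD5-201 (-0.92, -1.46 to -0.39). Next were the retained introns CRBN-210 (-0.62, -1.21 to -0.05) and DCAF8-214 (-0.62, -1.12 to -0.14). KCTD5 is a substrate receptor of CUL3, and CRBN and DCAF8 are receptors of CUL4. None of these 3 was past 2-fold, as the plot of the lists shows.

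Other RBR ligases included none of the 4 well-counted transcripts past 2-fold, with a median of 0.42. Of 10 tested, 1 was higher and 3 were lower. In the neddylation list, which holds NEDD8, its E1 and E2 enzymes and the DCUN1D proteins that promote its transfer, 3 of 16 tested transcripts were higher and 6 lower. Its well-counted transcripts past 2-fold were DCUN1D5-201, with a mean of 40 counts in EtOH against 100.5 in HgCl2 (1.47, 0.93 to 2.04), and the retained intron DCUN1D4-208, with 24 and 45.5 (1.06, 0.32 to 1.84). NEDD8-207 had 16 and 14 counts in EtOH and 10 and 12 in HgCl2 (-0.30, -1.57 to 0.92). UBE2M and UBE2F, the NEDD8 E2 enzymes, had at most 1 and 4 counts in any column on their most counted transcripts.

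Of the COP9 signalosome, which removes NEDD8, 4 of 13 tested transcripts were higher and 4 lower, with none of 4 past 2-fold among the well counted. COPS5-210, a retained intron of its catalytic subunit, had 182 and 151 counts in EtOH and 186 and 208 in HgCl2 (0.39, 0.08 to 0.69). CAND1, which exchanges substrate receptors, was among the best counted, and CAND1-208 had 905 and 916 counts in EtOH and 1187 and 1193 in HgCl2 (0.53, 0.40 to 0.66). Of this list 0 of 6 tested were higher and 2 lower. Of the E1 and E2 enzymes of ubiquitin, 4 of 12 tested were higher and 1 lower. The higher ones included the retained intron UBE2D3-224 (1.49, 0.88 to 2.14) and the coding transcript UBE2D3-225 (1.38, 0.70 to 2.10) of an E2 that serves RING ligases. UBE2L3, the E2 that loads RBR ligases, had 0 counts in every column on each transcript.

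Adaptors and substrate receptors were split by scaffold. For CUL1, 3 of 23 tested transcripts were higher and 4 lower, and the adaptor transcript SKP1-202 had 626 and 581 counts in EtOH and 577 and 587 in HgCl2 (0.09, -0.08 to 0.26). FBXO5-203, a retained intron, was at 1.0 (0.39 to 1.64). For CUL2 and CUL5, 6 of 38 were higher and 5 lower, with PCMTD1-202 at 1.31 (0.84 to 1.80) the well-counted one past 2-fold. Of their shared adaptors, ELOB had 0 counts and ELOC-207 had 10 and 15 in EtOH and 3 and 2 in HgCl2 (-2.13, -4.93 to -0.18). For CUL3, 6 of 29 were higher (20.7%) and 10 lower (34.5%), near the 19.2% and 34.1% over all tested transcripts. KLHL18-201 was at 1.0 (0.66 to 1.35), and KLHL42-202, whose annotated type is nonsense-mediated decay, at 1.17 (0.68 to 1.68). For CUL4, 5 of 35 were higher and 3 lower. The coding transcript DCAF8-216 was at 1.06 (0.66 to 1.47) and the retained intron DCAF8-217 at 1.13 (0.74 to 1.53), while the third DCAF8 transcript named above lay lower. The adaptor transcript DDB1-204, a retained intron, had 18 and 16 counts in EtOH and 4 and 3 in HgCl2 (-2.10, -4.33 to -0.44). Of the cullins outside the 10 genes, 1 transcript was tested and it was at least 2-fold lower. On the log2(FPKM + 1) scale, DCUN1D5-201 (0.83) and FBXO5-203 (0.93) were under 2-fold, and so was DDB1-204 (-0.71). With a minimum of 10 counts per column, KCTD5-201 passed 2-fold (-1.09), and the values of FBXO5-203, KLHL18-201, KLHL42-202, DCAF8-216, DCAF8-217 and DCUN1D4-208 came to lie under 2-fold.

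**Figure D4:**
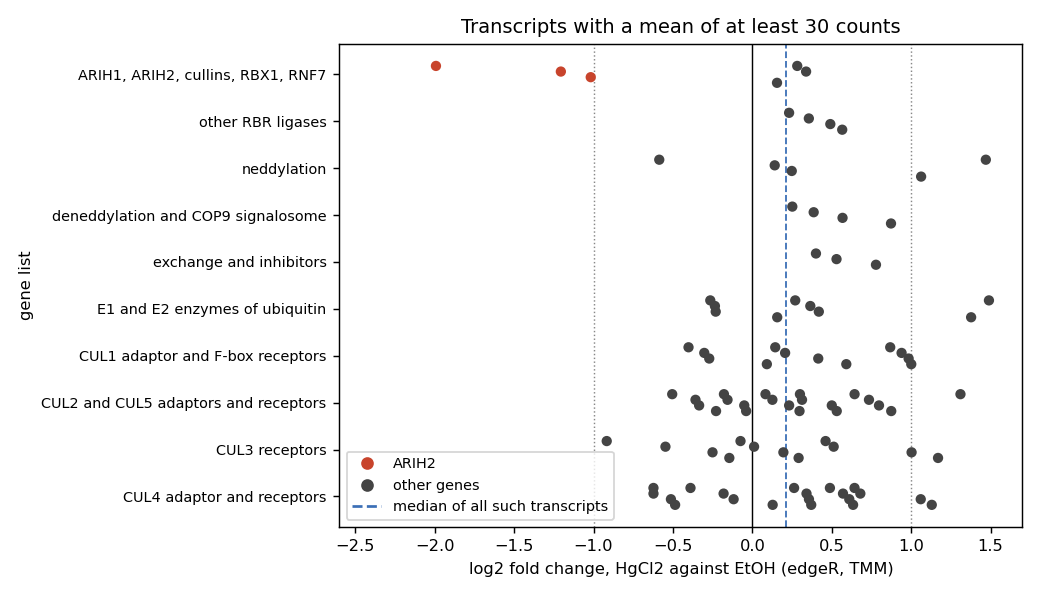
Log2 fold changes of transcripts that averaged 30 counts or more, 1 point each, for the 10 genes (top) and the other lists with such a transcript; the dashed line is the median of all such transcripts, 0.21, and dotted lines mark 2-fold. The 3 ARIH2 points, in red, lie past the dotted line at the left, where no other point lies.

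The scaling between the groups moved every value but did not turn ARIH2. Relative to the scale used here, the deposited FPKM scale raised log2 fold changes by 0.18 and the scale without the FPKM filter by 0.14, and asking for at least 10 counts in every column lowered them by 0.17. ARIH2-201 lay between -2.17 and -1.59 under all settings. ARIH2-213 lay between -1.38 and -0.97, and ARIH2-207 between -1.22 and -0.57, so that both fell under 2-fold in some. RNF7-201 and CUL5-201 were above 0 under all settings. The median of all tested transcripts that averaged 30 counts or more, 0.21, lay within the intervals of both. With at least 10 counts in every column they were at 0.11 and 0.16, and the median of the transcripts then tested was 0.0075.

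**Figure D5:**
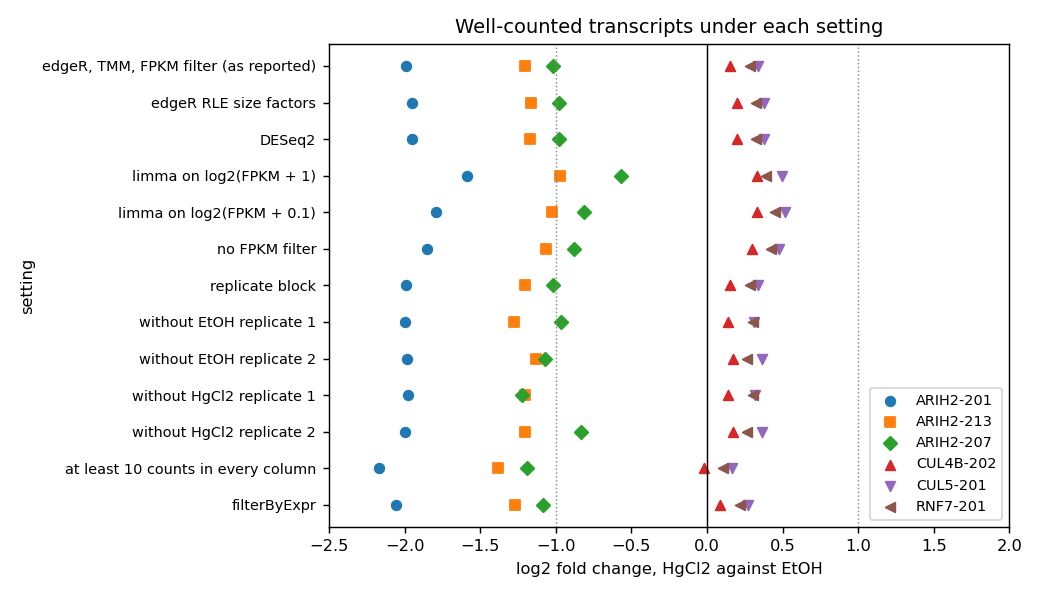
Log2 fold changes of the 6 transcripts that averaged 30 counts or more under the setting as reported (top) and each of the other 12 settings; dotted lines mark 2-fold. ARIH2-201 lies below -1 in every row, ARIH2-213 and ARIH2-207 cross that line, and CUL4B-202 reaches -0.02 with a minimum of 10 counts per column.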

How the data were processed

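RNA of H1299 cells was sequenced after HgCl2 or EtOH, with 2 columns per group, assigned by column names that carry the group and replicate number of the sample titles. The deposited counts were made by the authors with Trim Galore 0.6.5, STAR 2.5.4b on GRCh38 and Rsubread 2.0.1 per transcript of Ensembl 98, and are not normalized; the study calls the sequencing directional, but the counting options, strand included, are not given in the sources used here. The deposited FPKM are the authors' own, derived from the count table by DESeq2 1.26.0.

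Fold changes were fitted with edgeR 4.0.16 (glmQLFit, TMM, R 4.3.3) over the 17547 transcripts whose mean FPKM passed 1 in either group; alternatives used DESeq2 1.42.0 and limma 3.58.1, with pseudocounts of 1 and 0.1. No p-value is given, since each group counts as 1 sample. Names and exons come from GENCODE 44 on GRCh38, where 223558 of 227368 identifiers were found (98.3%). Bases covered by a single listed transcript were counted on both strands. Tables and figures were made with Python 3.11.15, numpy, pandas, scipy and matplotlib. In simulated counts for 17547 transcripts with 200 changed 4-fold, edgeR gave a median absolute log2 fold change of 2.02 for the 68 changed ones that averaged 30 counts or more.

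The genes, lists and rules were chosen with earlier results of these data known. Named were the tested transcripts of the 10 genes, all ARIH2 transcripts, list transcripts past 2-fold that averaged at least 30 counts, the most counted transcript of 10 chosen genes, and the 3 list transcripts nearest to ARIH2-201. The main test set beforehand was not used as a test because the columns of a group differed by less than counting noise. One marker set for the check of the cell line is not reported here.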

Additional observations from a re-analysis of the deposited data

How the results depend on the processing

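The values that left their counting interval, or for counts of transcripts a range of 1.5 times, were as follows. CUL4B-202 was at 0.33 on both FPKM scales, 0.29 with no FPKM filter and -0.02 with a minimum of 10 counts per column, and CUL5-201 at 0.50 and 0.51 on the FPKM scales and 0.16 with that minimum. Of the named list transcripts, tried on log2(FPKM + 1) and with that minimum, CAND1-208 was at 0.67 and 0.36. DCUN1D5-201 was at 0.83 on the former, and SKP1-202 at -0.083 with the latter. With limma on log2(FPKM + 1), ARIH2-201 was at -1.59, and the transcripts at least 2-fold lower numbered 4 of the 10 genes and 24 of the lists. On the FPKM scales the value of a gene is from the summed FPKM of its transcripts, in which short transcripts weigh more than in summed counts. These values are therefore of another quantity. For ARIH2, CUL4B and RNF7 they were -1.19, 0.27 and 1.01 with log2(FPKM + 1), and -1.23, 0.27 and 1.11 with log2(FPKM + 0.1). For CUL1 the latter gave 0.046, against -1.86 for its summed counts. With no FPKM filter, 6 transcripts of the 10 genes were at least 2-fold higher and 14 lower, 75 and 137 on the lists, and the summed counts of CUL4B were at 0.28. When every column had to reach 10 counts, 0 of the 10 genes' transcripts were higher and 4 lower, and on the lists 7 and 2. The summed counts of CUL4B and CUL5 were then at -0.032 and 0.16, and fewer transcripts were tested. With filterByExpr, 19 list transcripts were lower. The cause of the other shifts was not tested.

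With the replicate number as a block, ARIH2-201 was at -1.99. The deviations of same-numbered columns had r = 0.02 across 17547 transcripts (transcripts are not independent replicates), so the numbers are not taken to pair the samples, and the block moved none of the counts of transcripts past 2-fold. Leaving out each column in turn kept ARIH2-201 between -2.0 and -1.98. Transcripts under 10 counts, such as those of CUL1, can show little. Whether depth or the lack of own bases kept these counts low was not tested.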
